A study of Homo sapiens with 12 samples.

Results

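The genes described here are 10 genes known as intestinal stem cell genes or as targets of the Wnt pathway: LGR5, PROM1, SMOC2, ASCL2, SOX9, AXIN2, RNF43, ZNRF3, NKD1 and LEF1. They were taken by symbol from a count table of 57500 genes, in which each symbol has 1 row. They were proposed with results of the comparison of SW620 with SW480 in view, so their differences between those lines are given as a description of levels, with no p-value for any of them. RNA sequencing covered 4 groups with 3 biological replicates each, 12 libraries in all, from 3 established cancer cell lines. SW480 was derived from a primary colorectal tumour, and SW620 from a metastasis in the same patient. Both grew untreated in DMEM with serum. PEO4, an ovarian cancer line, grew in RPMI medium with serum, either as control or with the cytokine TGF-β at 10 ng/mL for 6 days. No library carried an engineered allele according to the labels. Each group is a single line in culture, so a difference between SW620 and SW480 is a difference between a pair of lines from 1 patient.

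Wnt ligands bind Frizzled receptors and the LRP5 and LRP6 co-receptors, which stops the destruction complex of APC, AXIN and GSK3 from marking β-catenin for breakdown. β-catenin then enters the nucleus and activates genes with the DNA-binding TCF and LEF factors, among them several inhibitors of the pathway itself. Stem cells at the base of the intestinal crypt depend on this signal, and most colorectal cancers have lost it as a controlled step, often through truncation of APC.

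Libraries held 14531420 to 22028956 counts assigned to genes. At these depths, 3 counts equalled 0.136 to 0.206 CPM, the unit of counts scaled to a common library total. Colorectal lineage markers (8 genes) summed to 204 to 259 CPM in SW480 and 442 to 714 in SW620. The highest gene was EPCAM in SW480 (mean 112 CPM) and VIL1 in SW620 (211 CPM). In PEO4 these markers summed to 141 to 178 CPM in control and 183 to 203 with TGF-β. Most of the PEO4 sum was EPCAM, with means of 147 CPM in control and 183 CPM with TGF-β. CDX2, CDH17 and GPA33 were at or under 3 counts in every PEO4 library. Ovarian lineage markers (8 genes) summed to 5619 to 9277 CPM in PEO4 control and 3162 to 4950 with TGF-β. MUC16 was the highest of them in PEO4, with means of 5713 and 2391 CPM. The ovarian sums were 108 to 127 CPM in SW480, led by PAX8 (43.4 CPM), and 135 to 203 CPM in SW620, led by MSLN (55.0 CPM). Of the 4 replicate 3 libraries, 3 stood apart in one respect. Genes with a median under 1 CPM over all libraries of a tissue and at 50 CPM or more in every library of the other tissue (29 genes in the colorectal lines and 18 in PEO4) reached 1.18% of the other tissue's level in SW620 replicate 3, 0.977% in PEO4 control replicate 3 and 1.06% in PEO4 TGF-β replicate 3, against 0.260 to 0.531% in the other 9 libraries. Low PEO4 levels are therefore given without replicate 3 as well, apart from the order per kilobase.

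All 10 genes were past a filter on low counts in the colorectal lines, and 7 of the 10 had an adjusted p under 0.05 in edgeR's quasi-likelihood test across all genes, 5 of them higher in SW620 and 2 lower. Over all genes tested 30.5% passed this threshold, 13.5% higher and 17.0% lower. The libraries of the lines did not overlap for 8 of the 10, against 43.6% of all genes. Since the genes were chosen on this contrast, nothing is read from these shares. Their median log2 fold change of SW620 over SW480 was 0.66, beside 0.03 for all genes tested. With the replicate number as a block, 9 of the 10 passed, SOX9 and RNF43 being added, where 50.9% of all genes passed.

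**Figure D1:**
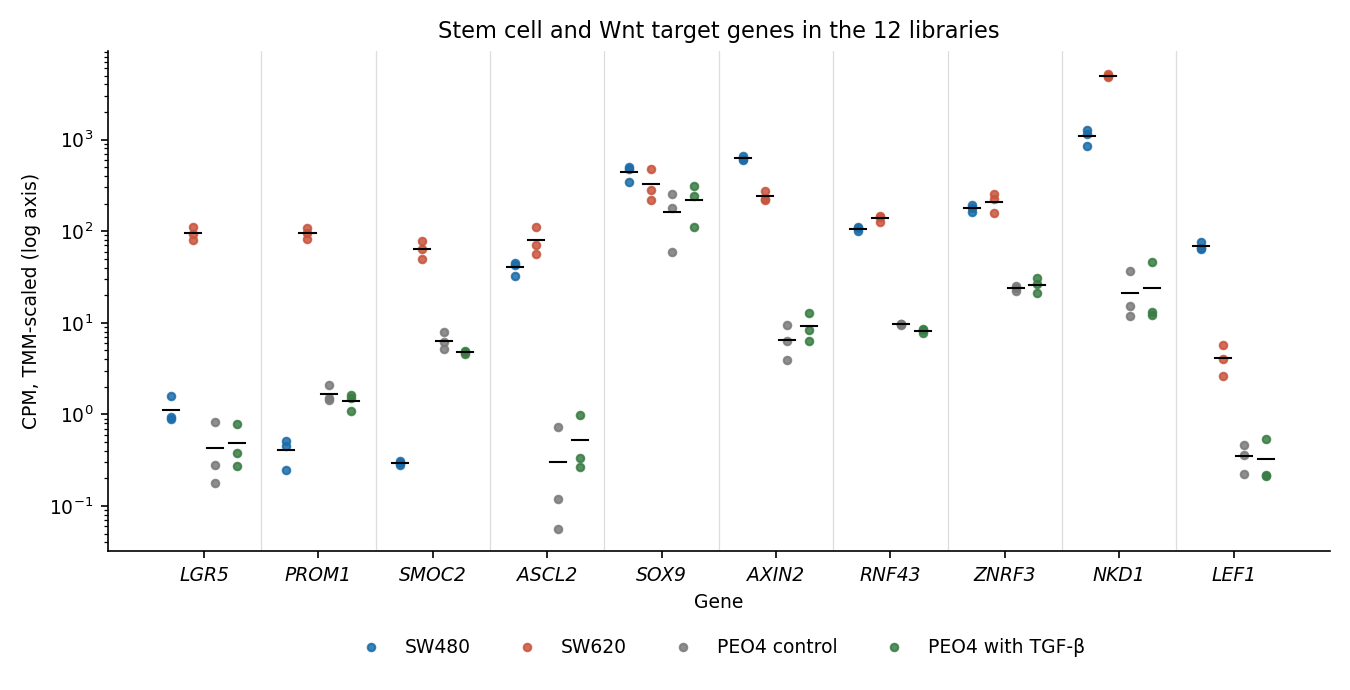
Level of each gene in every library, as TMM-scaled CPM on a log axis, with 1 point per library and a black bar at the mean of each group of 3. LGR5, PROM1 and SMOC2 sit at or under 1.57 CPM in SW480 and at 50.1 CPM or more in SW620, while AXIN2 and LEF1 are highest in SW480.

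The largest differences were in 3 stem cell genes that SW480 barely expressed. LGR5, the R-spondin receptor that marks crypt base stem cells (ENSG00000139292, chromosome 12, 71439770 to 71586310, GRCh38), was at 0.892, 1.57 and 0.928 CPM in SW480 and at 92.7, 80.2 and 112 CPM in SW620. The groups were far apart, at 1.13 ± 0.381 and 94.9 ± 15.9 CPM (SD, n = 3). The fitted log2 fold change was 6.36 ± 0.27 (SE), or 82.0-fold. In counts, SW480 held 18 to 28 per library.

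PROM1 encodes prominin 1, or CD133, a membrane protein used as a stem cell marker (ENSG00000007062, chromosome 4, 15963076 to 16084378). SW480 libraries had 0.248, 0.449 and 0.516 CPM and SW620 libraries 95.0, 81.5 and 109 CPM. Every SW480 library held between 5 and 10 counts, and no SW620 library fewer than 1493. The log2 fold change was 7.83 ± 0.27. SMOC2, a secreted matricellular protein found in crypt base stem cells (ENSG00000112562, chromosome 6, 168441151 to 168673445), was at 0.297, 0.280 and 0.309 CPM in SW480, and SW620 had 63.8, 50.1 and 77.5 CPM. SW480 held 5 or 6 counts per library, and the log2 fold change was 7.69 ± 0.27. In bulk libraries such as these, fewer cells expressing a gene and less RNA per cell cannot be told apart.

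RefSeq's promoter table (GRCh38.p14) held windows for 4 of the 10 genes, 8 windows in all: 4 of PROM1, 2 of RNF43 and 1 each of SMOC2 and LEF1. The sequences of PROM1 and SMOC2 are shown because these are the genes with the largest difference between the lines. Each line gives the part of the 250 bases before an annotated start that holds no annotated exon, 5′ to 3′ on the gene's strand. PROM1 windows at 16083337 to 16083586 and 16084024 to 16084273 have no such part and are not printed. Capitals mark a CTTTGAT match, the letters TCF and LEF factors are known to bind.
PROM1 minus strand chr4:16076119-16076368: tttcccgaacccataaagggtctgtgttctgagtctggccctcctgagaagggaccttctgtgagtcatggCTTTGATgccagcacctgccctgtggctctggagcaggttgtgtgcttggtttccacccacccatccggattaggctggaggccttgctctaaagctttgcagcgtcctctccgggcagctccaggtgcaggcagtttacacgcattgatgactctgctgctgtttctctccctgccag
PROM1 minus strand chr4:16083733-16083977: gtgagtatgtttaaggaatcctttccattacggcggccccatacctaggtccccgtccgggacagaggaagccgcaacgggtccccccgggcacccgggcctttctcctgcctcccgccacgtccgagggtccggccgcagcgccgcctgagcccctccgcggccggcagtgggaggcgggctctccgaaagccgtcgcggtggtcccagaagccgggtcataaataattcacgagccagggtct
SMOC2 plus strand chr6:168440934-168441150: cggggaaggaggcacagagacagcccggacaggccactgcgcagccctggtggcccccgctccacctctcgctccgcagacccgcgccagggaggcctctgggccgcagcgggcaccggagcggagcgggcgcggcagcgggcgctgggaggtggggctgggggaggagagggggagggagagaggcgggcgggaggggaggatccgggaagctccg
Both strands of the 8 windows of 250 bases were searched for CTTTGAT, for the related letters CTTTGAA and for CAGCTG, an E-box. A CTTTGAT match occurred once, on PROM1's own strand, and the other motifs did not occur. The first base of the match was at -179 from the start at which the window ends. That window (16076119 to 16076368) lies inside PROM1, whose span on the minus strand begins at 16084378. The gene's other windows lie nearer that end, between 16083337 and 16084273. Of all 35116 windows of the table, 2.26% hold CTTTGAT, 3.80% hold CTTTGAA and 13.99% hold CAGCTG. No binding was measured here, so these matches only describe the letters.

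The remaining stem cell genes are transcription factors, and both were abundant in each colorectal line. ASCL2, a Wnt-dependent factor of crypt stem cells (ENSG00000183734, chromosome 11, 2268495 to 2270952), was at 32.3, 43.1 and 45.3 CPM in SW480, and SW620 had 70.9, 56.4 and 112 CPM. The groups did not overlap, and the log2 fold change was 0.95 ± 0.25. Without replicate 3 of both lines it was 0.71. SOX9, a factor of crypt progenitors and Paneth cells (ENSG00000125398, chromosome 17, 72121020 to 72126420), was at 481, 343 and 498 CPM in SW480, with 281, 219 and 474 CPM in SW620. SW620 replicate 3 lay inside the SW480 range and the other SW620 libraries below it. The log2 fold change was -0.48 ± 0.28. It was -0.84 without SW620 replicate 3 and -0.77 without replicate 3 of both lines.

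The Wnt feedback and target genes went in both directions. NKD1, an inhibitor that binds Dishevelled (ENSG00000140807, chromosome 16, 50548330 to 50649249), had the highest level per length of the 10 genes in SW620. It was at 856, 1289 and 1160 CPM in SW480 and at 4902, 5267 and 4852 CPM in SW620, a log2 fold change of 2.15 ± 0.25. In SW620 it alone took 0.457 to 0.664% of all counts and ranked between 9 and 13 among all genes of a library. In SW480 it took 0.0935 to 0.156%.

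AXIN2, a scaffold of the destruction complex and a standard readout of Wnt signalling (ENSG00000168646, chromosome 17, 65528563 to 65561647), was lower in SW620. It was at 616, 604 and 664 CPM in SW480 and at 225, 217 and 277 CPM in SW620, with a log2 fold change of -1.42 ± 0.18. LEF1, one of the DNA-binding partners of β-catenin (ENSG00000138795, chromosome 4, 108047545 to 108168956), was at 65.4, 63.4 and 75.8 CPM in SW480 and at 4.02, 2.62 and 5.78 CPM in SW620. Its log2 fold change was -4.07 ± 0.27, or 16.8-fold lower. The groups were apart for both genes, so NKD1 and AXIN2, each a negative regulator of the pathway, differed between the lines in opposite directions.

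RNF43 and ZNRF3 are related membrane ubiquitin ligases that remove Frizzled receptors from the cell surface, and they had the smallest log2 fold changes of the 10 genes between the colorectal lines. RNF43 (ENSG00000108375, chromosome 17, 58352500 to 58417595) was at 107, 101 and 110 CPM in SW480, with 127, 148 and 144 CPM in SW620. These ranges did not overlap, and the log2 fold change was 0.37 ± 0.15. ZNRF3 (ENSG00000183579, chromosome 22, 28883592 to 29057487) was at 179, 164 and 192 CPM in SW480, with 222, 157 and 253 CPM in SW620. The SW620 libraries lay on both sides of the SW480 range, and the log2 fold change was 0.21 ± 0.20.

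Some of these counts share exon bases with other annotated genes, and the strand used in counting is not given in the sources used here. AC004805.1 covers 25.2% of the exon bases of AXIN2 on the same strand, and the antisense gene TSPOAP1-AS1 covers 20.3% of those of RNF43. The shares were 5.20% for LEF1 with LEF1-AS1, 3.96% for LGR5 with AC078860.1 and 2.23% for PROM1 with FGFBP2. RNF43 shares a further 1.91% with SUPT4H1, which had mean levels of 49.9 to 78.2 CPM. In SW480 and SW620, AC004805.1 had means of 3.30 and 1.23 CPM and TSPOAP1-AS1 of 4.72 and 8.96 CPM. A share of exon bases is not a share of counts. How far the counts of these 5 genes are affected was not measured.

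In the authors' deposited table for SW620 over SW480, all 10 genes are listed with log2 fold changes between -4.08 for LEF1 and 7.85 for PROM1, and those for LGR5, SMOC2 and NKD1 are 6.37, 7.71 and 2.15.

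Set on a scale per length (CPM per kilobase of exon), the order of the genes within a line differed. In SW480 AXIN2 (120) and SOX9 (112) were highest and overlapped each other, followed by NKD1 (63.2), ZNRF3 (25.6), ASCL2 (21.7), RNF43 (14.1) and LEF1 (12.7), with LGR5, SMOC2 and PROM1 each under 0.3 CPM per kilobase in every library. ZNRF3 and ASCL2 overlapped, as did RNF43 and LEF1. In SW620 NKD1 (287) stood alone at the top, then SOX9 (82.5), AXIN2 (45.9), ASCL2 (43.1), ZNRF3 (30.2), RNF43 (18.6), LGR5 (18.1), SMOC2 (15.8), PROM1 (12.8) and LEF1 (0.772). RNF43, LGR5, SMOC2 and PROM1 overlapped each with the next, so their order is not resolved. AXIN2, ASCL2 and ZNRF3 likewise overlapped each with the next, and the range of ASCL2 also reached that of SOX9.

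**Figure D2:**
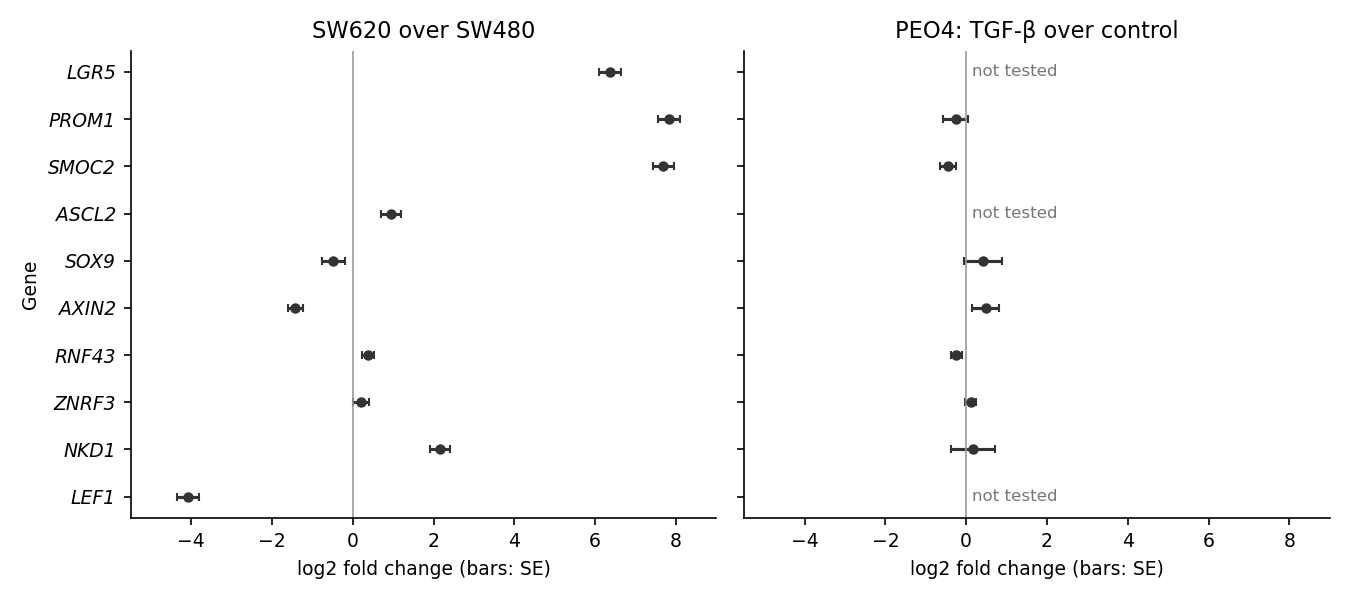
Fitted log2 fold changes of the 10 genes with standard errors as bars, for SW620 over SW480 (left) and for TGF-β over control in PEO4 (right), on the same axis. Values span -4.07 to 7.83 on the left and -0.44 to 0.48 on the right, where LGR5, ASCL2 and LEF1 had too few counts to be tested.

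Within 600 kb of NKD1, 7 other protein-coding genes reached a mean of 5 CPM in a group. This neighbourhood was looked at after the NKD1 values had been seen, so its values are a description. The 5 on the side of the NKD1 start all had a higher mean in SW620. BRD7 had 90.8 ± 6.64 CPM in SW480, against 210 ± 24.1 CPM in SW620, with a log2 fold change of 1.18 ± 0.16. The others were HEATR3 at 1.28 ± 0.16, TENT4B at 0.93 ± 0.19, ADCY7 at 0.91 ± 0.24 and CNEP1R1 at 0.44 ± 0.20. On the far side, NOD2 was lower at -1.83 ± 0.28 and CYLD stood at 0.12 ± 0.16. NKD1 itself exceeded all of these protein-coding genes in both level and difference. The clone-named RNAs AC007493.1 (3.52 ± 0.30) and AC007608.3 (2.85 ± 0.53) beside it had larger differences. Their levels were lower, with SW620 means of 16.9 and 6.42 CPM.

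Among 3 genes annotated inside NKD1, none shares more than 67 exon bases with it. AC007608.4 was at 365, 712 and 71.5 CPM in SW620, although NKD1 was within 4852 to 5267 CPM in the same libraries. Its counts were 7.44%, 13.5% and 1.47% of those of NKD1. In SW480 these shares were 6.16%, 12.4% and 5.52%. AC007608.1 and AC007608.2 were likewise lowest in SW620 replicate 3, at 19.1 and 26.9 CPM against 122 to 212 CPM in the other SW620 libraries.

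**Figure D3:**
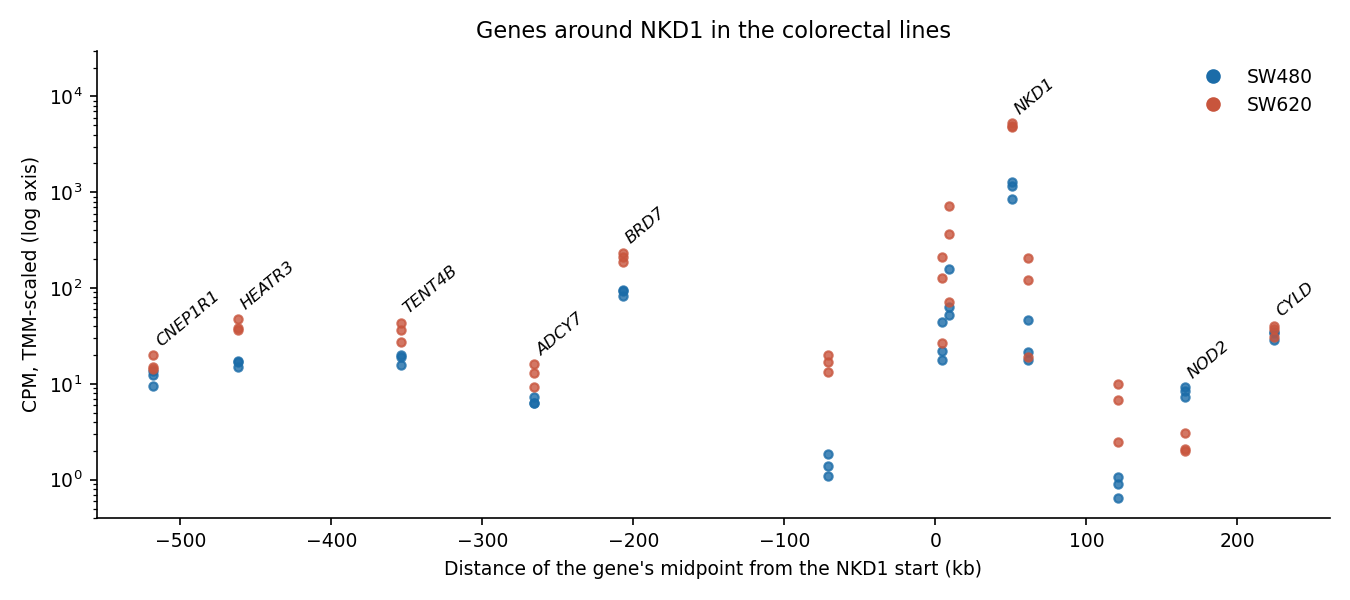
TMM-scaled CPM on a log axis of the genes within 600 kb of NKD1 that reach a mean of 5 CPM in a group, against the distance of each gene's midpoint from the NKD1 start in kb, with 1 point per library. Unlabelled columns are clone-named RNAs, and NKD1 at 4852 to 5267 CPM in SW620 lies above every neighbour.

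The rest of the Wnt pathway was described with lists that left out the 10 genes. Of 114 genes on 8 lists, 96 were tested in the colorectal lines and 64 (66.7%) passed, 25 higher and 39 lower in SW620, beside 30.5% of all genes tested, 13.5% higher and 17.0% lower. Their median log2 fold change was -0.31. These lists were drawn up with earlier results of these libraries known, and are no independent evidence of a direction.

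Of 19 Wnt ligands, 14 were tested, 7 were lower in SW620 and none was higher. WNT5A, a ligand best known for β-catenin-independent signalling, averaged 233 ± 42.6 CPM in SW480, against 0.862 ± 0.604 CPM in SW620. Its log2 fold change was -8.11 ± 0.50 (edgeR adjusted p = 7.86e-06). WNT7A, at 9.17, 5.94 and 8.46 CPM in SW480, had no SW620 library above 3 counts, so it was at least 48.0-fold lower against a floor of 3 counts per library. WNT9A (-4.63 ± 0.37) and WNT16 (-4.32 ± 0.48) fell as well. WLS, which carries Wnt ligands to the cell surface, fell by 2.23 on the log2 scale (adjusted p = 2.95e-04), and was the 1 gene called of 3 tested on the list of secretion factors and R-spondins. RSPO3, a ligand of the LGR receptors, had at most 4 counts in any colorectal library.

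All 17 receptors and co-receptors on the list were tested, and 6 rose and 6 fell. The co-receptors LRP5 and LRP6 rose by log2 fold changes of 2.04 ± 0.20 (adjusted p = 1.01e-04) and 1.25 ± 0.17 (adjusted p = 5.92e-04). Both paralogues of LGR5 rose, LGR4 by 0.95 ± 0.23 and LGR6 by 0.86 ± 0.23, with edgeR adjusted p-values of 0.0115 and 0.0194. LGR6 lost its call without SW480 replicate 1 (adjusted p = 0.0895), SW480 replicate 3 (0.0750) or SW620 replicate 1 (0.0594), and LGR4 without SW480 replicate 1 (0.0540). LGR6 was also lost without replicate 3 of both lines (0.105) and with all 12 libraries in 1 model (0.110). The Frizzled receptors split. FZD10 went from 0.452 ± 0.0416 to 20.3 ± 7.79 CPM and FZD5 from 19.2 ± 1.08 to 50.5 ± 12.5 CPM, while FZD7 went from 40.3 ± 13.9 to 0.500 ± 0.122 CPM. FZD1 (-4.70 ± 0.31) and FZD2 (-2.32 ± 0.42) also fell. ROR2, a receptor for WNT5A, was at least 100-fold lower in SW620, where no library was above 3 counts.

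Of the secreted and membrane antagonists 12 of 17 were tested, with 2 higher and 7 lower. NOTUM, a Wnt-deacylating enzyme and itself a Wnt target, rose from 182 ± 38.3 to 842 ± 171 CPM (log2 fold change 2.17 ± 0.24, adjusted p = 1.62e-04), and KREMEN1 rose by 2.09 ± 0.23. The Dickkopf family members DKK1 (-2.74 ± 0.51), DKK3 (-4.20 ± 0.29) and DKK4 (-5.10 ± 0.51) fell, as did TPBG (-3.32 ± 0.18). FRZB was at least 7.28-fold lower against the 3-count floor. APCDD1, an antagonist induced by Wnt, fell from 920 ± 124 to 128 ± 24.4 CPM.

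In the destruction complex and relay, 7 of 16 genes passed. CTNNB1, which encodes β-catenin, was at 1323, 815 and 1449 CPM in SW480 and at 358, 212 and 494 CPM in SW620, a log2 fold change of -1.79 ± 0.33 (adjusted p = 0.00332). NKD2, the paralogue of NKD1, rose by 2.79 ± 0.24 (adjusted p = 4.50e-05), from 13.9 ± 4.22 to 99.0 ± 12.9 CPM. AXIN1, the paralogue of AXIN2, rose by 1.02 ± 0.17 (adjusted p = 0.00199), opposite in direction to AXIN2. AMER1 rose by 1.22 ± 0.16 and TNKS, a tankyrase that destabilises AXIN proteins, by 0.74 ± 0.17. APC (-0.51 ± 0.14, adjusted p = 0.0259) and DVL3 (-0.71 ± 0.17, adjusted p = 0.0121) fell. The calls of APC, DVL3 and TNKS were each lost when 1 of several libraries was left out. For APC these were SW480 replicates 1 (adjusted p = 0.148), 2 (0.0532) and 3 (0.140) and SW620 replicates 1 (0.103) and 2 (0.0633). For DVL3 and TNKS they were SW480 replicate 1 (0.0703 and 0.0674), SW480 replicate 3 (0.0735 and 0.0511) and SW620 replicate 1 (0.102 and 0.0528). APC also failed with DESeq2 (0.0625), with no count filter (0.112) and without replicate 3 of both lines (0.157), and TNKS in the last of these (0.0560).

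Of 12 nuclear partners of β-catenin, 10 passed, 3 higher and 7 lower. The TCF factors related to LEF1 did not move as one. TCF7 fell from 142 ± 15.3 to 60.8 ± 7.34 CPM and TCF7L1 from 18.8 ± 2.98 to 4.78 ± 0.559 CPM, whereas TCF7L2 rose from 65.5 ± 7.53 to 122 ± 3.40 CPM (adjusted p = 4.11e-04, 1.06e-04 and 0.00280). The Groucho-type co-repressors TLE4 (-5.38 ± 0.61), TLE1 (-4.06 ± 0.49) and TLE2 (-2.90 ± 0.36) fell, as did the co-activator PYGO1 (-4.25 ± 0.55). BCL9, another co-activator, rose by 0.99 ± 0.15 and the inhibitor CTNNBIP1 by 1.38 ± 0.20.

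Other Wnt target genes were called in 14 of 15 tested, 5 higher and 9 lower, and so held genes of both directions, as NKD1, AXIN2 and LEF1 did. The cell cycle gene CCND1 fell from 3247 ± 946 to 395 ± 87.2 CPM (log2 fold change -3.07 ± 0.31, adjusted p = 9.84e-05) and FGF9 by 2.62 on the log2 scale. EPHB2, a receptor that positions cells along the crypt, rose from 29.2 ± 7.24 to 207 ± 57.1 CPM (2.79 ± 0.25, adjusted p = 5.57e-05), and TDGF1 rose by 2.97 ± 0.26. SP5, a direct Wnt target, stood at 125 ± 18.2 and 139 ± 56.9 CPM and did not pass (0.12 ± 0.26, adjusted p = 0.774). Its log2 fold change was -0.24 without SW620 replicate 3.

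Of 19 other crypt stem cell genes, 16 were tested, 9 rose and 4 fell. CD24 (3.15 ± 0.27), EPHB2, TERT (2.17 ± 0.42) and EPHB3 (1.50 ± 0.24) had the largest increases. CD44 fell from 146 ± 21.5 to 26.0 ± 4.23 CPM (-2.52 ± 0.19, adjusted p = 1.98e-05), and MSI1 (-3.76 ± 0.30), KCNQ1 (-2.62 ± 0.29) and TNFRSF19 (-1.33 ± 0.21) fell too. OLFM4, a marker of human crypt base cells, had at most 2 counts in any colorectal library, at or under the level that 3 counts allow.

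**Figure D4:**
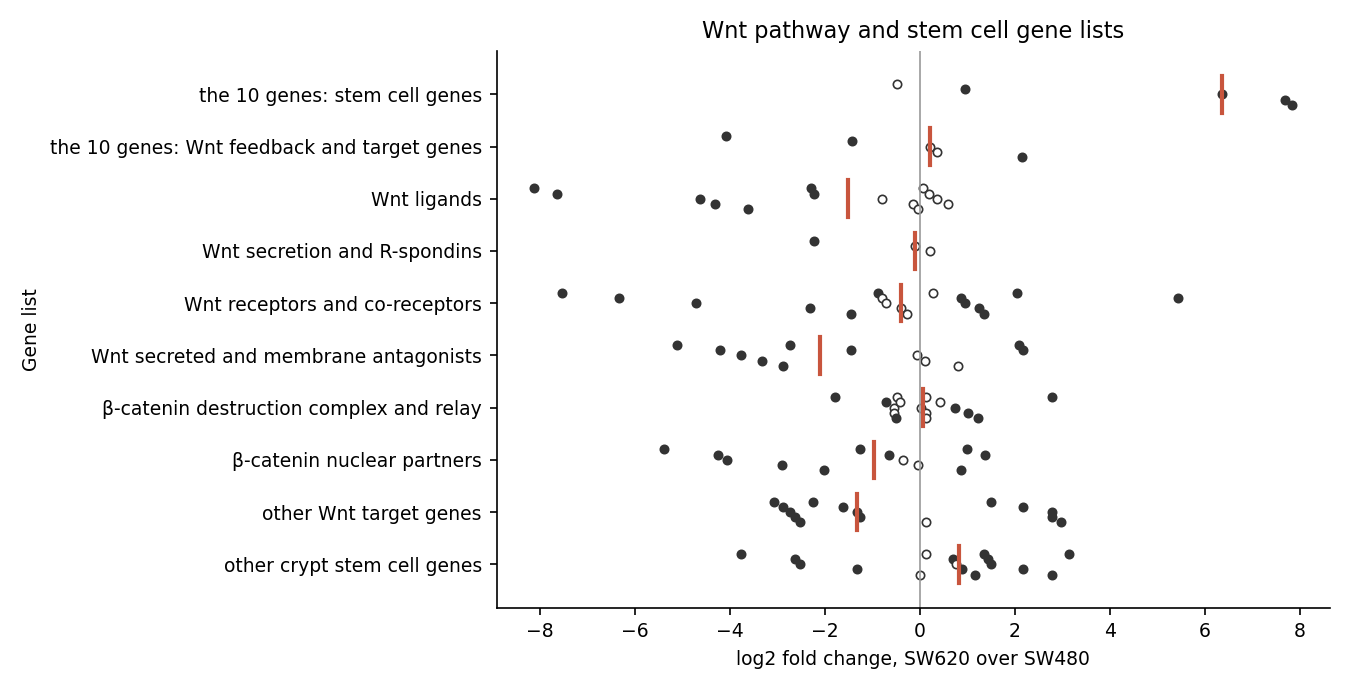
Log2 fold change of SW620 over SW480 for every tested gene of each list, with 1 point per gene, filled where the adjusted p was under 0.05, and a red bar at the list's median. The first 2 lists hold the 10 genes described here, and the medians run from -2.09 for the antagonists to 6.36 for the stem cell genes among the 10.

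Apart from the colorectal and ovarian lineage markers, the summed levels of 3 lists of other cell types did not overlap between the colorectal lines. Goblet markers (7 genes) summed to 2.53 to 3.08 CPM in SW480 and 19.9 to 43.3 CPM in SW620. TFF3 led in SW620, with means of 0.386 CPM in SW480 and 25.0 CPM in SW620, while FCGBP had 1.82 and 1.60 CPM. MUC2 was at 0.491, 10.3 and 0.770 CPM in the SW620 libraries. AGR2 and SPDEF had means under 1 CPM in both lines, and ATOH1 and CLCA1 were at or under 3 counts. Enteroendocrine and tuft markers (7 genes) summed to 88.7 to 164 CPM in SW480 and 30.2 to 48.0 CPM in SW620, with NEUROG3 at or under 3 counts in both lines. The members of that list differed in direction: the tuft cell marker DCLK1 was at 74.9 to 152 CPM in SW480 and at most 1.04 CPM in SW620, and the secretory granule gene CHGB at 3.82 to 5.89 and 23.6 to 39.7 CPM. Fibroblast and leukocyte markers (8 genes) summed to 2.73 to 3.72 and 8.24 to 21.3 CPM, with PDGFRA, DCN and PTPRC at or under 3 counts in SW480. The highest of them in SW620 was LUM, with a mean of 7.23 CPM. Enterocyte and colonocyte markers (10 genes) overlapped, at 1.75 to 2.64 and 2.31 to 8.19 CPM, with SI, CA1, AQP8 and GUCA2A at or under 3 counts in both lines, and so did Paneth markers (5 genes), at 6.25 to 8.05 and 1.52 to 8.81 CPM, with REG3A at or under 3 counts in both. Their part in the differences of the stem cell genes was not tested.

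By correlation of log2 CPM over the 12 libraries, among 13439 genes with a mean of at least 5 CPM in a group, the 5 most like LGR5 were ANKS4B, USP41, DDX19B, KRT40 and PHYHIPL (Pearson r 0.991 to 0.993). PHYHIPL was at 4.07 CPM in SW480, 121 in SW620 and 2.58 in PEO4 control. The 5 most like AXIN2 were COL2A1, NTSR1, ETV4, B3GALT5 and TRPV2 (0.994 to 0.996). ETV4 was at 236, 123 and 14.3 CPM in the same groups. Among the 10 genes themselves, LGR5 was most like PROM1 (0.911), and AXIN2 most like ZNRF3 (0.970). The libraries come from 3 lines only, so these values describe the pattern over lines.

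In PEO4 the 10 genes were lower than in both colorectal lines except for SOX9, PROM1 and SMOC2. For the other 7, every colorectal library was above every PEO4 library. The narrowest gap was for LGR5, where the lowest colorectal library was 1.08 times the highest PEO4 library, and the widest for ASCL2 at 32.6 times. The highest PEO4 libraries of both were replicate 3, and without these the ratios were 2.38 and 97.9. PROM1 (1.10 to 2.07 CPM) and SMOC2 (4.56 to 7.87 CPM) were higher in every PEO4 library than in every SW480 library, and lower than in every SW620 library. Without replicate 3, PROM1 was at 1.10 to 1.52 CPM and SMOC2 at 4.56 to 6.20 CPM in PEO4. For SOX9, every SW480 library (343 CPM or more) was above every PEO4 library (308 CPM or less), while SW620 overlapped each of the other groups. These lines differ in tissue and medium, and no test was made between them.

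Per kilobase of exon and with replicate 3 included, SOX9 was highest in PEO4 control (41.6) and with TGF-β (56.1), and ZNRF3 came next (3.43 and 3.73), apart from the genes on either side. SMOC2, RNF43, AXIN2 and NKD1 followed at 1.09 to 1.76 CPM per kilobase, largely overlapping, and the means of PROM1, ASCL2, LGR5 and LEF1 stood under 0.3. In PEO4 control LGR5 had 5, 3 and 16 counts, ASCL2 1, 2 and 14, and LEF1 4, 6 and 9. With TGF-β LGR5 had 5, 7 and 16 counts, ASCL2 6, 5 and 20, and LEF1 4, 4 and 11.

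Of the 10 genes, 8 were above both other libraries of their group in replicate 3, in control and with TGF-β alike. RNF43 and SOX9 were not. NKD1 was at 11.8, 15.1 and 36.4 CPM in control and 13.2, 12.1 and 46.3 CPM with TGF-β. The excess of replicate 3 over the mean of the others equalled 0.752 and 1.10% of the NKD1 level in the colorectal lines. For AXIN2 that share was 0.995 and 1.29%, for LGR5 1.25 and 0.972%, and for ASCL2 1.06 and 1.15%. PROM1 (1.24 and 0.697%) and LEF1 (0.482 and 0.905%) were in a similar range, but the shares were 6.87 and 0.879% for SMOC2, 0.989 and 3.74% for ZNRF3 and 0.0222 and 0.122% for RNF43, and SOX9 was lower in replicate 3, at -41.0 and -43.4%. The whole share of other-tissue reads in the same libraries was 0.977 and 1.06%. It is not an excess, since replicates 1 and 2 had 0.278 and 0.416% in control and 0.531 and 0.497% with TGF-β. The measures are therefore unlike, and the part of other-tissue reads in the excess of each gene was not tested. Without replicate 3 the group means of NKD1 were 13.4 and 12.6 CPM, those of AXIN2 5.10 and 7.32 CPM, those of LGR5 0.230 and 0.325 CPM, those of ASCL2 0.0878 and 0.299 CPM, and those of LEF1 0.292 and 0.217 CPM.

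Without the replicate number as a block, none of the 7 genes tested in PEO4 passed the threshold after TGF-β in edgeR's quasi-likelihood test. Of all 19064 genes tested, 2.26% did. With the block SOX9 and AXIN2 passed, where 11.0% of all genes did. LGR5, ASCL2 and LEF1 were removed by the filter on low counts. In the fits without the block, none had an unadjusted p under 0.05 in edgeR, DESeq2 or limma-voom, and none was called by any of these tools. The PEO4 libraries of the groups did not overlap for 2 of the 7, against 21.3% of all genes tested. SMOC2 was at 5.13, 6.20 and 7.87 CPM in control and 4.56, 4.77 and 4.95 CPM with TGF-β (log2 fold change -0.44 ± 0.20, adjusted p = 0.312), and without replicate 3 of both groups the log2 fold change was -0.29 (adjusted p = 0.590). RNF43 was at 9.53, 9.77 and 9.68 CPM in control and 7.69, 8.64 and 8.32 CPM with TGF-β (-0.24 ± 0.13, adjusted p = 0.391). Both genes were lower in all 3 treated libraries, by less than the test could separate from the spread.

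SOX9 and AXIN2 varied more between replicates than between treatments. SOX9 was at 254, 178 and 59.2 CPM in control and 308, 244 and 110 CPM with TGF-β, and replicate 3 was the lowest of both groups. In each replicate number the treated library was the higher one. The log2 fold change was 0.42 ± 0.48 (edgeR adjusted p = 0.712) without the block and 0.52 with the replicate number as a block (adjusted p = 0.00491). AXIN2 was at 3.89, 6.32 and 9.42 CPM in control and 6.32, 8.31 and 12.9 CPM with TGF-β, again higher in each treated library than in the control library of its number. Its log2 fold change was 0.48 ± 0.34 (adjusted p = 0.531) without the block and 0.49 with it (adjusted p = 0.0445). In the blocked fit these 2 of the 7 genes passed, where 11.0% of all genes did. Without replicate 3 and without the block, SOX9 stood at 0.34 (adjusted p = 0.409) and AXIN2 at 0.51 (0.437).

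The log2 fold changes of the remaining tested genes were each smaller than their standard errors. ZNRF3 was at 22.3, 24.1 and 25.2 CPM in control and 20.9, 26.2 and 30.8 CPM with TGF-β (0.11 ± 0.14, adjusted p = 0.745). PROM1 was at 1.52, 1.43 and 2.07 CPM and then 1.10, 1.50 and 1.63 CPM (-0.26 ± 0.31, adjusted p = 0.731). NKD1 stood at 0.17 ± 0.55 (adjusted p = 0.911) and at -0.10 without replicate 3 of both groups. Over the alternative fits NKD1 ranged from -0.76 to 0.84, so its direction is not resolved. In the authors' deposited table the 7 genes have adjusted p-values from 0.393 for SMOC2 to 0.957 for NKD1, and LGR5, ASCL2 and LEF1 are not listed.

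Of the 114 other pathway genes, 85 were tested in PEO4 and 4 (4.71%) were called, 3 higher and 1 lower, beside 2.26% of all genes, with a median log2 fold change of 0.05 beside -0.02 for all genes tested. With the replicate block, 26 of the 85 were called, where 11.0% of all genes were. EPHB2, the receptor that was also higher in SW620, was at 47.4, 27.5 and 25.4 CPM in control and 140, 144 and 134 CPM with TGF-β (2.05 ± 0.20, adjusted p = 0.00233). This was the largest change of the 4, and it passed in all 17 alternative fits. WNT11 rose from 46.6 ± 6.10 to 83.2 ± 18.5 CPM (0.83 ± 0.16, adjusted p = 0.0373), and APCDD1 from 17.8 ± 1.61 to 34.2 ± 8.24 CPM (0.93 ± 0.17, adjusted p = 0.0302). LGR4, a paralogue of LGR5, fell from 208 ± 22.5 to 133 ± 16.9 CPM (-0.65 ± 0.11, adjusted p = 0.0229).

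The calls of WNT11, APCDD1 and LGR4 were each lost when 1 of several libraries was left out, but their directions held. Over the 17 alternative fits the log2 fold changes were 0.63 to 1.00 for WNT11, 0.83 to 1.12 for APCDD1 and -0.73 to -0.55 for LGR4. WNT11 and APCDD1 were lost without control replicate 2 (adjusted p = 0.185 and 0.144), control replicate 3 (0.0963 and 0.0533), TGF-β replicate 2 (0.151 and 0.124) or TGF-β replicate 3 (0.0972 and 0.0879), and LGR4 without control replicate 2 (0.135) or TGF-β replicates 1 (0.0912), 2 (0.0626) or 3 (0.0648). With all 12 libraries in 1 model, WNT11 (0.266) and LGR4 (0.186) were lost too. Without replicate 3 of both groups, LGR4 and EPHB2 passed (0.0411 and 0.0148) while WNT11 (0.177) and APCDD1 (0.130) did not. LGR6 (0.53 ± 0.44, adjusted p = 0.600) and NOTUM (-0.82 ± 0.55, adjusted p = 0.502) did not pass, and with the block they did, at 0.52 (adjusted p = 0.00102) and -0.74 (0.0183). SP5 stood at 0.87 ± 0.26 (adjusted p = 0.133), DKK1 at 1.28 ± 0.56 (0.292), TCF7 at 0.26 ± 0.15 (0.416), CTNNB1 at 0.05 ± 0.09 (0.806) and LRP5 at 0.00 ± 0.07 (0.993).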

How the data were processed

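RNA was depleted of ribosomal RNA before library preparation, per the labels. The authors deposited whole-number counts per Ensembl gene ID, and the submitters' processing notes name Trimmomatic 0.36, STAR 2.5.2b, featureCounts, Subread 1.5.2, DESeq2 and build GRCh38 in no stated role. Annotation and strand use are not given in the sources used here. The authors' deposited tables give log2 fold changes and adjusted p-values, per the file headers. They served only for the sentences that name them.

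Each comparison was fitted on its 6 libraries with edgeR 4.0.16 in R 4.3.3 (filterByExpr, TMM and the two-sided quasi-likelihood test of glmQLFTest). Adjustment was by Benjamini-Hochberg over all genes tested and a threshold of 0.05. The SE is the log2 fold change over the square root of F. CPM levels use TMM over all 12 libraries, and length is the union of exons in GENCODE 29, where 56898 of 57500 IDs were found. The floor of 3 counts covers counting error only. With 3 libraries against 3, the smallest p of an exact permutation test is 0.1 (two-sided). The p-values measure the spread between samples that the labels call biological replicates. The code was tested on simulated data with the same dispersion for every gene. These held no effect of replicate number and no other-tissue reads, so the test does not cover them.

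The 10 genes, the lists and the rule for naming pathway genes were chosen with earlier results of these data known. The rule names up to 4 genes past the threshold per list and direction by size, with at least 1 CPM in the higher group, plus 17 genes whatever their result. Those of the 17 that are not given for PEO4 did not pass or were not tested there. The cut-offs for other-tissue reads and the fit without replicate 3 of both groups were set after seeing the data.

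Groups share replicate numbers. In a first check on log2(CPM + 1) without TMM, for genes over 5 CPM, made before any fit's calls were seen, same-numbered samples correlated in their deviations from the group means at 0.25, 0.76 and 0.69 (SW480 with SW620) and 0.54, 0.14 and 0.62 (PEO4). Different-numbered samples were at -0.72 to 0.34 in the colorectal lines and -0.55 to 0.03 in PEO4. SW480 replicate 1 correlated more with SW620 replicate 3 (0.34) than with SW620 replicate 1 (0.25). Every same-numbered value is over 0.1, and on that alone the numbers were taken to pair the samples. A second check used TMM-scaled log2 CPM of the tested genes and was computed after calls had been seen. Its same-numbered values were 0.02, 0.67, 0.57 and 0.29, -0.14, 0.48, so the scales disagree on the pairing. Its different-numbered values were -0.63 to 0.27 in the colorectal lines and -0.49 to 0.24 in PEO4. The labels do not say what a number shares. The main results are without the block. Alternatives were DESeq2 1.42.0, limma-voom (limma 3.58.1), other scalings and filters, all 12 libraries in 1 model, the block, and each library left out.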

Additional observations from a re-analysis of the deposited data

How the results depend on the processing

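Counts of calls moved more in PEO4 than in the colorectal lines. For SW620 against SW480, 6385 genes were called, 10667 with the replicate block, and 4253 to 7419 with each library left out. The lowest was without SW480 replicate 1. In PEO4, 431 genes were called, against 922 with DESeq2, 1457 with no count filter, 165 with all 12 libraries in 1 model, 2102 with the replicate block, 119 without replicate 3 of both groups, and 72 to 1080 with each library left out (72 without control replicate 2, 1080 without control replicate 1). Pathway genes called in PEO4 went from 4 to 10 with DESeq2, 19 with no filter, 2 with all 12 libraries, 26 with the block, 2 without replicate 3 of both groups, and 1 to 13 with each library left out. Of the 10 genes, none was called in PEO4 and 2 were with the block, SOX9 and AXIN2. The block lost no call of a pathway gene. It added 22 in PEO4, among them LGR6, NOTUM, CD24, CD44, DKK3, EPHB3, FZD2, TLE1, TPBG and WNT9A, and 10 in the colorectal lines, and of the 10 genes there it added SOX9 and RNF43. In the colorectal lines ASCL2 lost its call without SW480 replicate 1, SW480 replicate 3, SW620 replicate 1 or replicate 3 of both lines. SOX9 gained one without SW620 replicate 3, and RNF43 with all 12 libraries in 1 model. The 10 genes were chosen on this contrast, so these changes describe the fits and are no support for a difference.

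In the colorectal lines the 10 genes kept their direction in every fit that tested them. PROM1 and SMOC2 were not tested where at least 10 counts were required in every library. In that fit 5 of the 8 remaining were called, and 5405 genes were called in all. How many genes that fit tested is not given here, so no share over all genes stands beside the 5 of 8. The genes were chosen on this contrast, so nothing is read from that count or from the kept directions. Among the 10 genes and the pathway genes named for a comparison, directions that turned all belonged to genes that did not pass. In PEO4 these were NKD1 without control replicate 1 (-0.11), control replicate 2 (-0.02), TGF-β replicate 3 (-0.76) or replicate 3 of both groups (-0.10), ZNRF3 without TGF-β replicate 3 (-0.03), and LRP5 with upper quartile scaling (-0.02), library totals (-0.01), or without control replicate 2 (-0.01) or TGF-β replicate 1 (-0.02). In the colorectal lines SP5 turned without SW620 replicate 3 (-0.24) or replicate 3 of both lines (-0.13). With each library left out, NKD1 ranged from -0.76 to 0.84, ZNRF3 from -0.03 to 0.25, LRP5 from -0.02 to 0.03 and SP5 from -0.24 to 0.38. The cause was not tested. Genes named only for the other comparison turned in a further 13 fits of 6 genes in PEO4 and 2 fits of 1 gene in the colorectal lines, none called. Scaling by library totals moved 11 of the 40 group levels by more than their SD, and RLE scaling moved none. Depth limits LGR5, ASCL2 and LEF1 in PEO4 and PROM1 and SMOC2 in SW480, which rest on 20 counts or fewer per library.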
